A study of Mus musculus with 24 samples.

Results

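The genes described here encode the non-collagen extracellular matrix of the mouse kidney: matrix glycoproteins, proteoglycans, laminins and the lysyl oxidases that cross-link the matrix. They were taken as a named list of 38 symbols, matched by symbol to the deposited table of raw counts. All 38 of 38 were found among its 23955 symbols, and all 38 passed the filter on low counts that left 15080 genes for testing.

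Kidney RNA was sequenced in 24 libraries that fell into 6 groups of 4. The PLD4-/- mice (KO) and the PLD4+/+ mice (WT) were each sampled as day 0 controls and, after unilateral ureteral obstruction (UUO), at day 5 and at day 10. In UUO 1 ureter is closed, and the kidney above it becomes fibrotic. Pld4 encodes a membrane protein of the phospholipase D family, which acts as a nuclease in endosomes. No Cre, transgene or inducing agent is named for any group, and the labels give neither the strain, age or sex of the mice nor the part of the gene that was deleted. The labels do not say whether the 4 libraries of a group came from separate animals. A p value therefore weighs a difference against the spread between libraries within groups and no more. That spread was estimated over all 24 libraries. The questions put to the data were how obstruction changed the matrix genes at each time, whether it did so differently in KO and WT kidneys, and whether the genotypes differed at each day.

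The extracellular matrix of the kidney has an interstitial and a basement membrane compartment. In the interstitium, fibronectin, matricellular proteins, elastic fibre components and small leucine-rich proteoglycans are laid down around collagen fibrils, mainly by fibroblasts and pericytes, and lysyl oxidases cross-link the fibrils. Basement membranes, which underlie tubules, glomeruli and vessels, are sheets of laminin and type IV collagen joined by nidogens and by the heparan sulfate proteoglycans perlecan and agrin. Obstruction is a standard model in which interstitial matrix accumulates while tubules atrophy.

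Levels are given as CPM, which are counts scaled to the same total in each library with TMM factors, and as FPKM from the authors' deposited table where genes are compared with each other. A difference is a log2 fold change ± its SE. A gene is called higher or lower, or said to rise or fall, where it had a Benjamini-Hochberg adjusted p under 0.05 in edgeR's quasi-likelihood test over the 15080 genes. Total counts per library ran from 9800888 to 22542866. The first principal component held 65.6% of the variance and separated day 0 from obstruction. WT day 10 replicates 2 and 3 lay apart from the other 22 libraries on the second component, at -84.97 and -69.3 against values from -19.89 to 26.6. Those 2 libraries had summed levels of 5 neutrophil markers of 3591 and 6198 CPM, against at most 26.7 CPM in any other library, and their 6 proximal tubule markers summed to 148 and 616 CPM, the lowest of the 24. For the 38 genes, calls by edgeR that rest on them are given with and without them. Other WT day 10 values, and all calls of genes outside the 38, include them unless said otherwise. Pld4 transcript was found in all 12 KO libraries. Its level was 12.6, 9.91, 8.68 and 6.70 CPM in KO kidneys at day 0, against 5.10, 5.53, 7.89 and 8.25 CPM in WT kidneys, which overlapped. At day 5 it was 32.6, 18.9, 13.4 and 16.4 CPM in KO kidneys, against 50.9, 47.6, 48.2 and 46.5 CPM in WT kidneys, with no overlap and a log2 difference of -1.25 ± 0.27 (adjusted p = 0.0724). At day 10 it was 24.3, 36.1, 38.5 and 50.3 CPM in KO kidneys, against 68.7, 85.4, 118 and 54.6 CPM in WT kidneys, a log2 difference of -1.13 ± 0.27 (adjusted p = 0.0331). The day 0 values gave no check of the genotype labels, and KO and WT at day 0 mean the libraries labelled so.

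Most of the 38 matrix genes rose with obstruction in both genotypes. In KO kidneys 30 were higher at day 5 and 32 at day 10 than at day 0, and none was lower, where 22.4% and 28.3% of all genes tested were higher and 17% and 26% lower. In WT kidneys 35 were higher and 1 lower at day 5, and 34 were higher and 2 lower at day 10, where 31% and 37.8% of all genes were higher and 25.6% and 30.3% were lower. The median log2 change of the 38 genes was 1.75 at day 5 and 1.85 at day 10 in KO kidneys, with 0.0149 and 0.0414 over all genes, and 2.11 and 2.89 in WT kidneys, with 0.0818 and 0.117 over all genes. All 4 obstructed libraries lay above all 4 day 0 libraries for 28 genes at day 5 and 32 at day 10 in KO kidneys, and for 36 and 32 genes in WT kidneys, with backgrounds of 22%, 29.9%, 28.2% and 32.4% of all genes. They lay below them for 2 genes, Fmod and Lama1, at each time in WT kidneys (24.9% and 29% of all genes) and for none in KO kidneys (17.5% and 26.7%). These counts are of CPM, and in FPKM the WT day 0 values of Fmod and Lama1 overlapped those of each obstruction day. Without WT day 10 replicates 2 and 3 the WT day 10 change had a median of 2.15, with 36 genes higher and 2 lower. The KO and WT responses use different day 0 groups, but the 2 times of a genotype share theirs.

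The 38 genes together took 0.129% to 0.176% of all counts in KO kidneys at day 0, 0.503% to 0.667% at day 5 and 0.627% to 0.851% at day 10. In WT kidneys they took 0.0953% to 0.123% at day 0, 0.487% to 0.627% at day 5 and 0.4928% to 1.52% at day 10, where replicate 2 held the highest share of the 24 libraries. At day 0 the KO and WT shares did not overlap. The summed level of 8 fibroblast and myofibroblast markers moved with them, at 239.7 to 419.9 CPM in KO kidneys at day 0 and 1925 to 3054 CPM at day 10, and at 201.6 to 341.4 CPM in WT kidneys at day 0 and 1521 to 6659 CPM at day 10. The 5 macrophage markers did so too, at 205.7 to 244.6 CPM in KO kidneys at day 0 and 555.6 to 693.2 CPM at day 10, and at 123.4 to 179.9 CPM in WT kidneys at day 0 and 539.8 to 1615 CPM at day 10, with 5 of 5 risen at day 10 in each genotype. The 6 proximal tubule markers moved the other way, at 10980 to 16090 CPM and then 1858 to 3983 CPM in KO kidneys, and at 15020 to 18170 CPM and then 148 to 5626 CPM in WT kidneys. The part of these cells in the results was not tested, and in whole kidney fewer cells of a type and less RNA per cell cannot be told apart.

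**Figure D1:**
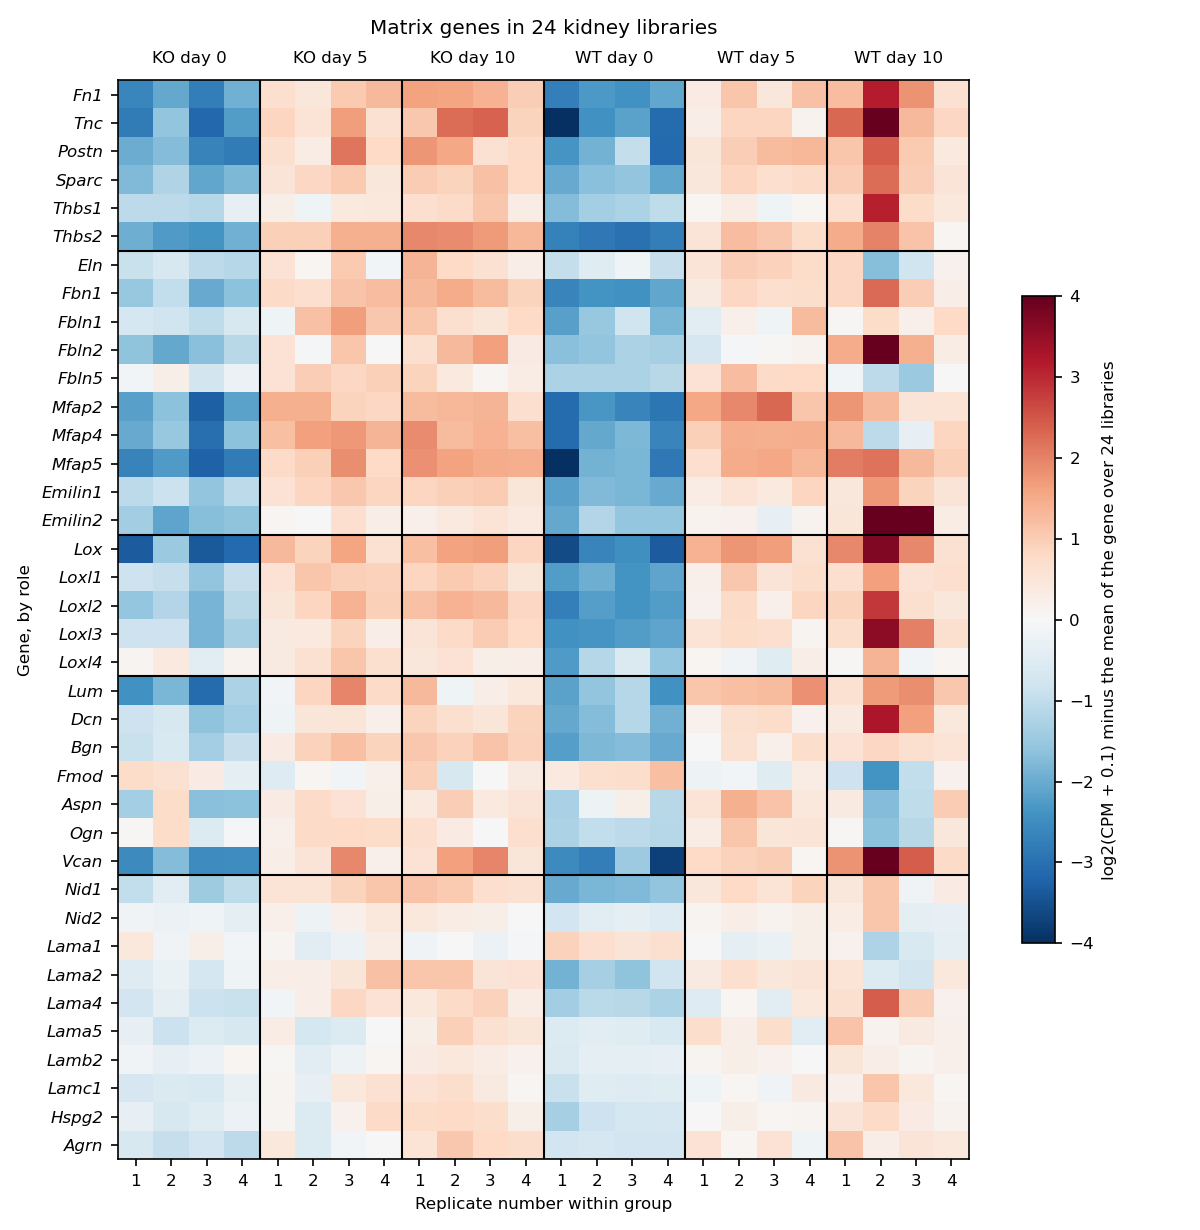
Levels of the 38 matrix genes (rows, by role) in the 24 libraries (columns, by group and replicate number), as log2(CPM + 0.1) minus the gene's mean over all libraries. Day 0 columns are blue for most genes and obstructed columns red in both genotypes, Lama1 and Fmod run the other way in WT, and WT day 10 replicate 2 holds the highest level of the 24 libraries for 20 of the 38 genes.

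Compared per length, biglycan (Bgn) and Sparc were the most abundant of the 38 transcripts in all 6 groups. In KO kidneys Bgn had 66.3 ± 12.5 FPKM and Sparc 39.7 ± 9.46 FPKM at day 0 (mean ± SD, n = 4), and 398 ± 44.2 and 388 ± 57.4 FPKM at day 10. In WT kidneys they had 29.8 ± 5.30 and 32.6 ± 6.21 FPKM at day 0, and 278 ± 37.5 and 456 ± 279.7 FPKM at day 10. Bgn and Sparc did not differ beyond their SD at day 10 in either genotype or at day 0 in WT kidneys. Agrin (Agrn) and decorin (Dcn) came next at day 0 in both genotypes, at 16.5 ± 1.70 and 16.3 ± 4.33 FPKM in KO kidneys and 15.8 ± 1.05 and 9.79 ± 3.42 FPKM in WT kidneys. Versican (Vcan) was the lowest at day 0, at 0.109 ± 0.0133 FPKM in KO and 0.0958 ± 0.0819 FPKM in WT kidneys.

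Promoter sequence, from 250 bases before to 50 bases after an annotated start, was held for 23 of the 38 genes in RefSeq's table for GRCm38.p6. Motifs were looked for on both strands, and a gene counted if the window of any of its annotated starts held a match. The TATA box TATAAA was found in 5 of the 23 genes (21.7%, against 15.7% of 27025 genes with a promoter). The Sp1 GC box GGGCGG was found in 15 (65.2%, against 38.2%). The TEAD element GGAATG was found in 4 (17.4%, against 16.6%), and the AP-1 element TGANTCA in none (0%, against 8.97%). The 27025 genes were not limited to those tested here. A match describes the letters in this window and is not evidence of binding. Sequences are printed for Emilin2, which alone was lower in KO than in WT kidneys at day 10, and for the 3 genes with 1 annotated start and a difference of at least 1 on the log2 scale at day 0, Loxl4, Bgn and Ogn. In each, capitals mark matches to these motifs on either strand, and adjoining capitals can hold overlapping matches.

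The 6 genes of fibronectin and matricellular proteins all rose at both times in both genotypes, with a median log2 change of 3.26 at day 5 and 3.63 at day 10 in KO kidneys, and 3.06 and 3.77 in WT kidneys. Fibronectin (Fn1) is an adhesive glycoprotein that cells assemble into fibrils early in wound repair. Fn1 in KO kidneys measured 33.7, 49.9, 30.6 and 55.1 CPM at day 0, 328, 286, 427 and 513 CPM at day 5 and 626, 612, 542 and 408 CPM at day 10. Fn1 in WT kidneys measured 31.2, 42.1, 38.9 and 48.98 CPM at day 0, 257, 446, 285 and 470.4 CPM at day 5 and 487, 1809, 717 and 315 CPM at day 10. Obstructed and day 0 values did not overlap in either genotype, and WT day 10 replicate 2 stood highest. Fn1 rose by 3.20 ± 0.41 at day 5 and 3.69 ± 0.41 at day 10 in KO kidneys, and by 3.18 ± 0.41 and 4.37 ± 0.43 in WT kidneys. Over the 33 other settings its day 10 rise ran from 3.56 to 4.28 in KO and from 3.34 to 4.66 in WT kidneys.

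Tenascin-C (Tnc) is a matricellular protein made mostly in injured or developing tissue. Tnc in KO kidneys measured 5.67, 13.2, 4.42 and 8.34 CPM at day 0, 71.9, 58.6, 128 and 60.3 CPM at day 5 and 83.99, 189, 205 and 73.6 CPM at day 10. Tnc in WT kidneys measured 1.90, 7.40, 8.97 and 4.64 CPM at day 0, 47.6, 72.5, 71.7 and 43.5 CPM at day 5 and 197, 1198, 98.95 and 71.5 CPM at day 10. Within WT day 10 replicate 2 was 1198 CPM and the next highest library 197 CPM. Tnc rose by 4.14 ± 0.74 at day 10 in KO and 6.09 ± 0.81 in WT kidneys, and by 4.58 ± 0.54 in WT kidneys without replicates 2 and 3. Periostin (Postn) binds collagen and integrins and is a product of activated fibroblasts. Postn in KO kidneys measured 3.52, 4.18, 2.13 and 1.95 CPM at day 0, 22.1, 17.5, 63.9 and 24.7 CPM at day 5 and 49.2, 41.5, 21.8 and 24.2 CPM at day 10. Postn in WT kidneys measured 2.68, 3.74, 7.36 and 1.55 CPM at day 0, 19.8, 28.3, 34.2 and 35.8 CPM at day 5 and 30.96, 76.6, 29.6 and 18.9 CPM at day 10. KO day 5 replicate 3 was well above the other 3 libraries of its group, and the genotypes overlapped at each day. Postn rose by 3.56 ± 0.53 in KO and 3.35 ± 0.52 in WT kidneys at day 10.

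Sparc, a collagen-binding glycoprotein, was already abundant at day 0. Sparc in KO kidneys measured 171, 251, 138 and 168 CPM at day 0, 831, 1031, 1211 and 797 CPM at day 5 and 1167, 1083, 1302 and 1022 CPM at day 10. Sparc in WT kidneys measured 145, 182, 196 and 139 CPM at day 0, 794, 1050, 924 and 992 CPM at day 5 and 1161, 2733, 1160 and 827 CPM at day 10. Day 0 and obstructed libraries were apart by a wide margin in both genotypes. Sparc rose by 2.65 ± 0.29 in KO and 3.15 ± 0.30 in WT kidneys at day 10. Thrombospondin 1 (Thbs1), which can activate latent TGF-beta, had the smallest rise of the 6 genes in each comparison with day 0. Thbs1 in KO kidneys measured 90.5, 89.6, 84.6 and 149.5 CPM at day 0, 218, 166, 245 and 252 CPM at day 5 and 299, 316, 401 and 230.1 CPM at day 10. Thbs1 in WT kidneys measured 56.3, 72.4, 77.8 and 92.3 CPM at day 0, 196, 229, 167 and 195 CPM at day 5 and 299, 1598, 312 and 247 CPM at day 10. The high WT value at day 10 again belonged to replicate 2. Thbs1 rose by 1.09 ± 0.42 at day 5 in KO kidneys (adjusted p = 0.0435) and by 1.59 ± 0.42 at day 10, and by 1.40 ± 0.42 and 3.04 ± 0.45 in WT kidneys. Its KO day 5 call was lost in 10 of 33 other settings, among them RLE factors (1.06, adjusted p = 0.0502) and single omissions of KO day 0 replicates 1, 2 and 3, KO day 5 replicates 1, 3 and 4 and WT day 0 replicates 2 and 3 (adjusted p up to 0.105). Its WT day 10 rise was 1.96 without replicate 2 and 1.90 ± 0.23 without replicates 2 and 3. Thrombospondin 2 (Thbs2), a relative that lacks that activity, ranged from 7.84 to 10.9 CPM at day 0 and 105 to 157 CPM at day 10 in KO kidneys, and from 5.11 to 6.23 and 43.9 to 165 CPM in WT kidneys. Thbs2 rose by 3.86 ± 0.29 in KO (adjusted p = 5.33e-09) and 4.18 ± 0.30 in WT kidneys at day 10 (adjusted p = 8.24e-10).

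The elastic fibre consists of an elastin core on a scaffold of microfibrils. Of the 10 elastic fibre genes, 10 rose at both times in KO kidneys, and 9 at each time in WT kidneys. Elastin (Eln) itself was the WT day 10 exception. Eln in KO kidneys measured 13.4, 15.9, 12.03 and 11.2 CPM at day 0, 37.8, 26.2, 51.4 and 23.4 CPM at day 5 and 65.01, 43.1, 38.5 and 29.8 CPM at day 10. Eln in WT kidneys measured 12.97, 17.9, 22.2 and 13.1 CPM at day 0, 35.7, 50.1, 47.1 and 41.4 CPM at day 5 and 44.2, 7.66, 14.2 and 28.5 CPM at day 10. WT day 10 replicates 2 and 3 lay within or below the day 0 range, and replicates 1 and 4 above it. Eln rose by 1.40 ± 0.38 at day 5 and 1.75 ± 0.38 at day 10 in KO kidneys and by 1.40 ± 0.38 at day 5 in WT kidneys, while the WT day 10 change was 0.52 ± 0.37 (adjusted p = 0.225). Without replicates 2 and 3 that change was 1.17 ± 0.30 and passed (adjusted p = 0.0026).

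Fibrillin 1 (Fbn1) is the main structural protein of microfibrils. Fbn1 in KO kidneys measured 18.9, 26.98, 13.3 and 17.4 CPM at day 0, 91, 85.3, 119.8 and 128 CPM at day 5 and 133, 151, 129.8 and 99.97 CPM at day 10. Fbn1 in WT kidneys measured 8.47, 10.3, 10.1 and 12.8 CPM at day 0, 69.6, 96.7, 86.2 and 87.7 CPM at day 5 and 95.2, 258, 106 and 65.1 CPM at day 10. Its KO day 0 values all lay above its WT day 0 values, and the obstructed values of the genotypes overlapped. Fbn1 rose by 2.75 ± 0.32 in KO and 3.65 ± 0.33 in WT kidneys at day 10. Mfap5, a small glycoprotein of microfibrils, had the largest KO rise of the 38 genes. Mfap5 in KO kidneys measured 0.601, 0.836, 0.381 and 0.546 CPM at day 0, 7.64, 8.61, 16.1 and 7.75 CPM at day 5 and 15.9, 13.8, 12.4 and 12.2 CPM at day 10. Mfap5 in WT kidneys measured 0.0865, 1.10, 1.17 and 0.516 CPM at day 0, 7.01, 12.4, 13.1 and 11.1 CPM at day 5 and 18.6, 20.2, 11.1 and 8.57 CPM at day 10. Counts at day 0 were low, at 1 to 13 per library. Mfap5 rose by 4.55 ± 0.45 in KO and 4.34 ± 0.43 in WT kidneys at day 10. The related Mfap2 ranged from 0.838 to 2.75 CPM at day 0 and 14.01 to 22.6 CPM at day 10 in KO kidneys, and from 0.951 to 1.70 and 12.6 to 30.4 CPM in WT kidneys. Mfap4, another microfibril-associated glycoprotein, ranged from 1.37 to 4.06 and 27.3 to 43.7 CPM in KO kidneys and from 1.30 to 3.32 and 5.68 to 29.3 CPM in WT kidneys at the same days. Its 2 lowest WT day 10 values belonged to replicates 2 and 3.

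The fibulins are glycoproteins that join elastic fibres and basement membranes to other matrix. Fibulin 2 (Fbln2) in KO kidneys measured 6.18, 4.54, 5.94 and 8.96 CPM at day 0, 28.7, 18.4, 41.9 and 19.2 CPM at day 5 and 30.4, 47.1, 59.9 and 24.4 CPM at day 10. Fbln2 in WT kidneys measured 5.97, 6.38, 7.89 and 7.56 CPM at day 0, 12.1, 18.4, 19.97 and 21.1 CPM at day 5 and 54.2, 336, 51.96 and 23.7 CPM at day 10. Within WT day 10, replicate 2 was at 336 CPM and the other 3 at 54.2 CPM or below. Fbln2 rose by 2.65 ± 0.58 in KO and 4.07 ± 0.61 in WT kidneys at day 10, or by 2.66 in WT kidneys without replicate 2 and 2.52 ± 0.37 without replicates 2 and 3. The WT day 5 rise of Fbln2, 1.36 ± 0.57 (adjusted p = 0.0456), missed the threshold in 12 of 33 other settings, among them the omission of any WT day 0 library, of KO day 0 replicate 1, 2 or 3, or of WT day 5 replicate 2, 3 or 4. Fibulin 5 (Fbln5), which is needed for elastic fibre assembly, in KO kidneys measured 158, 200.3, 103 and 146 CPM at day 0, 254, 338, 304 and 331 CPM at day 5 and 319.5, 225, 182 and 211 CPM at day 10. Fbln5 in WT kidneys measured 70.8, 70.7, 70.2 and 78.8 CPM at day 0, 253, 404, 292 and 299 CPM at day 5 and 158, 82.2, 60.9 and 174 CPM at day 10. The WT day 10 libraries all lay below the WT day 5 libraries, and KO lay above WT at day 0 and at day 10 with no overlap. Fbln5 rose by 1.01 ± 0.27 at day 5 and 0.63 ± 0.26 at day 10 in KO kidneys (adjusted p = 0.005 and 0.0489). The rises in WT kidneys were 2.10 ± 0.27 and 0.71 ± 0.26. The KO day 10 call was lost in 15 of 33 other settings. These were no low-count filter (0.63, adjusted p = 0.056) and the omission of any WT day 0 library, KO day 0 replicate 1, 3 or 4, WT day 5 replicate 3, KO day 5 replicate 2, 3 or 4 or KO day 10 replicate 1, 2 or 4, with the lowest value, 0.45 (adjusted p = 0.173), without KO day 10 replicate 1. The WT day 10 call of Fbln5 was lost in 3 of 33, the compared groups alone and the omission of WT day 10 replicate 1 (0.56) or replicate 4 (0.49). Fbln1 ranged from 9.37 to 12.3 CPM at day 0 and 27.2 to 41.9 CPM at day 10 in KO kidneys, and from 4.15 to 10.9 and 19.96 to 33.8 CPM in WT kidneys.

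The emilins are glycoproteins found where elastin meets microfibrils. Emilin1 in KO kidneys measured 46.9, 53, 32.2 and 46.5 CPM at day 0, 144, 175, 204 and 176 CPM at day 5 and 173, 186, 193 and 135 CPM at day 10. Emilin1 in WT kidneys measured 21.1, 28.3, 26.8 and 23.6 CPM at day 0, 119, 140.3, 126 and 174 CPM at day 5 and 133, 320.1, 179 and 138 CPM at day 10. KO was above WT in every library at day 0 and the genotypes overlapped afterwards. Emilin1 rose by 1.95 ± 0.23 in KO and 2.95 ± 0.24 in WT kidneys at day 10. Emilin2 in KO kidneys measured 1.80, 1.07, 1.45 and 1.56 CPM at day 0, 5.19, 5.02, 7.97 and 5.88 CPM at day 5 and 5.64, 6.49, 7.21 and 6.49 CPM at day 10. Emilin2 in WT kidneys measured 1.12, 2.13, 1.61 and 1.63 CPM at day 0, 5.41, 5.55, 3.87 and 5.46 CPM at day 5 and 6.97, 134, 157 and 6.03 CPM at day 10. The WT day 10 replicates 2 and 3 were more than 10 times as high as the other 22 libraries. Emilin2 rose by 2.01 ± 0.75 at day 5 and 2.11 ± 0.75 at day 10 in KO kidneys. The day 5 call was lost in 9 of 33 other settings, among them log2(FPKM + 1) (0.93, adjusted p = 0.169) and the omission of any KO day 0 library or of KO day 5 replicate 3 or 4. Its WT day 5 change was 1.64 ± 0.74 (adjusted p = 0.0641), and it rose by 5.54 ± 0.79 at day 10 in WT kidneys, or by 2.02 ± 0.24 without replicates 2 and 3. RefSeq annotates 2 starts for Emilin2, whose windows on the minus strand of GRCm38.p6 are chr17:71311507-71311806, with no match, and chr17:71310962-71311261, with 2 GC boxes and 1 TEAD element.
Emilin2 window 1: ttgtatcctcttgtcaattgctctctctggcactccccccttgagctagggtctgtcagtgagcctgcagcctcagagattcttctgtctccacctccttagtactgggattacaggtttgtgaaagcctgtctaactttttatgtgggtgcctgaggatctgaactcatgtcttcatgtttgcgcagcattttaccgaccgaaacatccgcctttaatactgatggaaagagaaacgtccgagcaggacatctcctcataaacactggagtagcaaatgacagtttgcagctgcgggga
Emilin2 window 2: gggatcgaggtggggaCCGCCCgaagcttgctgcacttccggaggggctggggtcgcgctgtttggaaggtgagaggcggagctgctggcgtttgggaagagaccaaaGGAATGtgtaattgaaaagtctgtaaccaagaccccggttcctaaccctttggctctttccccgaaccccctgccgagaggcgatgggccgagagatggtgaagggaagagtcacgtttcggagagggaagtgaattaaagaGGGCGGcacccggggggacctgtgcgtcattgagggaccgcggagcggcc

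The lysyl oxidases are copper-dependent enzymes that oxidise lysines of collagen and elastin and so start their cross-linking. All 5 rose at both times in WT kidneys and 4 of 5 did so in KO kidneys, where Loxl4 did not pass. The founding member Lox in KO kidneys measured 3.18, 11.7, 3.12 and 3.74 CPM at day 0, 81.6, 61.9, 99.2 and 50.8 CPM at day 5 and 77.1, 100.4, 106 and 60.8 CPM at day 10. Lox in WT kidneys measured 2.68, 5.27, 5.92 and 3.18 CPM at day 0, 86.5, 112, 106 and 50.4 CPM at day 5 and 125, 435, 125 and 50.3 CPM at day 10. KO day 0 replicate 2 stood above the other 7 day 0 libraries, and WT day 10 replicate 2 above all obstructed ones. Lox rose by 4.03 ± 0.56 in KO and 5.43 ± 0.59 in WT kidneys at day 10, and by 3.40 to 4.68 and 4.09 to 5.76 over the 33 other settings. Loxl1, which acts mainly on elastin, had a higher start in KO kidneys. Loxl1 in KO kidneys measured 20.4, 18.98, 12.1 and 19.2 CPM at day 0, 54.5, 78, 70.9 and 68.7 CPM at day 5 and 66.01, 75.96, 69.6 and 51.2 CPM at day 10. Loxl1 in WT kidneys measured 7.61, 9.27, 6.91 and 8.34 CPM at day 0, 41.7, 77.3, 51.7 and 59.2 CPM at day 5 and 58.1, 113, 54.5 and 58.1 CPM at day 10. The genotypes were apart at day 0 and overlapped at both obstruction days. Loxl1 rose by 1.95 ± 0.23 at day 5 and 1.90 ± 0.23 at day 10 in KO kidneys, and by 2.84 ± 0.24 and 3.14 ± 0.24 in WT kidneys.

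Loxl2, which acts on type IV and fibrillar collagens, in KO kidneys measured 16.7, 21.7, 13.4 and 22.6 CPM at day 0, 68.8, 89.2, 127 and 94.7 CPM at day 5 and 111, 129, 119 and 87.6 CPM at day 10. Loxl2 in WT kidneys measured 7.26, 10.6, 9.15 and 10.2 CPM at day 0, 54.9, 82.5, 55.98 and 89.2 CPM at day 5 and 90.5, 348, 76.6 and 67.5 CPM at day 10. KO lay above WT at day 0 in every library. Loxl2 rose by 2.59 ± 0.40 in KO and 3.97 ± 0.43 in WT kidneys at day 10, and by 2.46 to 3.19 and 3.09 to 4.22 over the 33 other settings. Loxl3 in KO kidneys measured 7.30, 7.28, 3.50 and 5.14 CPM at day 0, 16.8, 17.2, 24.1 and 15.6 CPM at day 5 and 18.8, 22.3, 26.5 and 22.9 CPM at day 10. Loxl3 in WT kidneys measured 2.33, 2.47, 2.69 and 2.92 CPM at day 0, 18.96, 21.7, 20.7 and 14.2 CPM at day 5 and 21.3, 156, 52.8 and 20.2 CPM at day 10. It too was higher in every KO than in every WT library at day 0, and WT day 10 replicates 2 and 3 were the highest of the 24. Loxl3 rose by 1.97 ± 0.46 in KO and 4.58 ± 0.51 in WT kidneys at day 10, or by 3.02 ± 0.24 in WT kidneys without replicates 2 and 3. An exon of Loxl3 overlaps one of Htra2 on the opposite strand in GENCODE's mouse annotation, and whether strand was used in the counting is not given in the sources used here.

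Loxl4 in KO kidneys measured 8.16, 9.91, 5.41 and 8.26 CPM at day 0, 9.74, 11.4, 16.1 and 11.8 CPM at day 5 and 10.3, 11.3, 8.87 and 9.05 CPM at day 10. Loxl4 in WT kidneys measured 1.47, 3.32, 5.02 and 2.49 CPM at day 0, 7.85, 6.79, 5.32 and 9.09 CPM at day 5 and 7.73, 19.2, 6.96 and 7.88 CPM at day 10. At day 0 and at day 5 every KO library exceeded every WT library. The KO differences of Loxl4 from day 0 were 0.63 ± 0.32 at day 5 and 0.32 ± 0.32 at day 10 (adjusted p = 0.119 and 0.41). It rose by 1.24 ± 0.34 and 1.76 ± 0.34 in WT kidneys. WT day 10 replicate 2 was the highest at 19.2 CPM, and the WT day 10 rise of Loxl4 ran from 0.91 to 2.10 over the 33 other settings. Its promoter window is chr19:42612757-42613056 on the minus strand of GRCm38.p6 and holds 3 GC boxes.
Loxl4: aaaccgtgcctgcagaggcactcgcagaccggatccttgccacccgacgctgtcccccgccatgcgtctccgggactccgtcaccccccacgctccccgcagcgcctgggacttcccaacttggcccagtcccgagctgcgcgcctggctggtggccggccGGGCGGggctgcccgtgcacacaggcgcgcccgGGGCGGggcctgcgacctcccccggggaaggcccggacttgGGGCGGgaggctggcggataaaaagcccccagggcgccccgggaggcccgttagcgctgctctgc

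Small leucine-rich proteoglycans bind collagen fibrils and regulate their width and spacing, and versican is a large proteoglycan that binds hyaluronan. Of these 7 genes, 4 rose at both times in KO kidneys, and 6 rose at day 5 and 5 at day 10 in WT kidneys, where 1 fell at day 10. Biglycan (Bgn) in KO kidneys measured 277, 338, 198 and 268 CPM at day 0, 646, 974, 1181 and 937 CPM at day 5 and 1087, 971, 1126 and 972 CPM at day 10. Bgn in WT kidneys measured 112, 146, 154 and 127 CPM at day 0, 508, 776, 586 and 828 CPM at day 5 and 757, 914, 798 and 742 CPM at day 10. KO was above WT with no overlap at day 0 and again at day 10. Bgn rose by 1.79 ± 0.20 at day 5 and 1.95 ± 0.20 at day 10 in KO kidneys, and by 2.33 ± 0.20 and 2.58 ± 0.21 in WT kidneys. Its window on the plus strand of GRCm38.p6, chrX:73483351-73483650, holds 3 GC boxes.
Bgn: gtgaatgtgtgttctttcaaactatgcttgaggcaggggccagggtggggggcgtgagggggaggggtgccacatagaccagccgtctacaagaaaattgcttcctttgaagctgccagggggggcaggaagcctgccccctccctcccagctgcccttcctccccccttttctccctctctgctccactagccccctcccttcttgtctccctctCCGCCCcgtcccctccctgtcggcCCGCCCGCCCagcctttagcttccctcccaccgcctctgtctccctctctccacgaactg

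Decorin (Dcn) and lumican (Lum), which share a collagen-binding fold with biglycan, are neighbouring genes on chromosome 10. Dcn in KO kidneys measured 59.4, 66.7, 34.4 and 40.9 CPM at day 0, 92.2, 147, 146 and 122 CPM at day 5 and 194, 164, 147 and 193 CPM at day 10. Dcn in WT kidneys measured 25.1, 31.3, 47.9 and 27.9 CPM at day 0, 119.6, 164, 174 and 119 CPM at day 5 and 134, 996, 328 and 142 CPM at day 10. WT day 10 replicate 2 was about 7 times and replicate 3 more than 2 times as high as the other 2 WT day 10 libraries. Dcn rose by 1.80 ± 0.45 in KO and 3.60 ± 0.48 in WT kidneys at day 10, or by 2.09 ± 0.25 in WT kidneys without replicates 2 and 3. Lum in KO kidneys measured 1.37, 2.15, 0.838 and 3.20 CPM at day 0, 7.29, 14.3, 30.9 and 13.4 CPM at day 5 and 19.7, 7.02, 9.52 and 10.7 CPM at day 10. Lum in WT kidneys measured 1.73, 2.55, 3.50 and 1.38 CPM at day 0, 17.2, 18.2, 19 and 27.96 CPM at day 5 and 12.1, 25.9, 28.8 and 16.7 CPM at day 10. In WT day 10 replicate 2, where Dcn was highest, Lum was within the range of the WT day 5 libraries. Lum rose by 2.63 ± 0.47 in KO and 3.19 ± 0.46 in WT kidneys at day 10.

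Osteoglycin (Ogn), a collagen-binding member of the family, in KO kidneys measured 31.3, 50.5, 20.8 and 28.8 CPM at day 0, 35.3, 52.4, 52.97 and 50.4 CPM at day 5 and 48.5, 38.01, 30.4 and 48.6 CPM at day 10. Ogn in WT kidneys measured 12.6, 15.3, 14.6 and 13.7 CPM at day 0, 37.6, 65.8, 42.6 and 44.1 CPM at day 5 and 31.5, 9.79, 14.2 and 42.2 CPM at day 10. KO was above WT with no overlap at day 0, and WT day 10 replicates 2 and 3 were below and within the WT day 0 range. The KO differences of Ogn from day 0 were 0.55 ± 0.33 at day 5 and 0.34 ± 0.33 at day 10 (adjusted p = 0.195 and 0.399). It rose by 1.76 ± 0.34 and 0.80 ± 0.34 in WT kidneys (adjusted p = 0.000268 and 0.0424). The WT day 10 call of Ogn was lost in 10 of 33 other settings, among them RLE factors (adjusted p = 0.0508), no low-count filter (adjusted p = 0.0523) and the replicate block (0.76, adjusted p = 0.058). It was also lost without any 1 WT day 0 library and without WT day 10 replicate 1 or replicate 4 (0.67 and 0.42, adjusted p = 0.107 and 0.242). Asporin (Aspn), which lies beyond Omd from Ogn on chromosome 13, ranged from 1.37 to 7.64 CPM at day 0 and 6.05 to 9.15 CPM at day 10 in KO kidneys, and from 1.82 to 5.47 and 1.32 to 9.31 CPM in WT kidneys. Aspn rose by 1.42 ± 0.54 at day 5 in WT kidneys (adjusted p = 0.0311), a call lost on omission of WT day 0 replicate 1 or 4 or WT day 5 replicate 2 or 3 (adjusted p up to 0.0922). The Ogn window, chr13:49607765-49608064 on the plus strand of GRCm38.p6, holds 2 overlapping TATA box matches, 1 on each strand, and 1 TEAD element.
Ogn: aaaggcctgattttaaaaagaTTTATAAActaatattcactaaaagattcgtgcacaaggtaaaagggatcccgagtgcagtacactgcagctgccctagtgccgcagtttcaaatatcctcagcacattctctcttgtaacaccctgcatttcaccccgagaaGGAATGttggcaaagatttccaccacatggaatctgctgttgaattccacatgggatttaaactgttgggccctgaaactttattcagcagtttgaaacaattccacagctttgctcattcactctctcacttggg

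Fibromodulin (Fmod) ran against the rest of the family in WT kidneys. Fmod in KO kidneys measured 20.96, 19.6, 15.8 and 9.90 CPM at day 0, 8.86, 13.3, 11.7 and 14.5 CPM at day 5 and 24.4, 8.03, 12.8 and 16.1 CPM at day 10. Fmod in WT kidneys measured 16.7, 19.98, 20.9 and 29.1 CPM at day 0, 11, 11.6, 9.05 and 15.4 CPM at day 5 and 7.06, 2.33, 6.35 and 14.1 CPM at day 10. In CPM every obstructed WT library was below every WT day 0 library, while the KO days overlapped. In FPKM the WT days overlapped too, at 2.78 to 5.57 at day 0, 2.57 to 4.31 at day 5 and 0.690 to 3.81 at day 10. Fmod fell by 1.53 ± 0.39 at day 10 in WT kidneys (adjusted p = 0.00148), and its WT day 5 change was -0.88 ± 0.38 (adjusted p = 0.0535). In KO kidneys the changes were -0.45 ± 0.38 and -0.10 ± 0.38 (adjusted p = 0.361 and 0.834). Versican (Vcan) in KO kidneys measured 1.12, 2.03, 1.14 and 1.17 CPM at day 0, 8.51, 10.1, 26.5 and 8.15 CPM at day 5 and 10.4, 22.1, 27.1 and 9.85 CPM at day 10. Vcan in WT kidneys measured 1.12, 0.935, 2.51 and 0.430 CPM at day 0, 12.1, 13.2, 13.9 and 7.41 CPM at day 5 and 24.4, 156, 38.2 and 11.9 CPM at day 10. Replicates 2 and 3 were the highest of the WT day 10 libraries. Vcan rose by 3.70 ± 0.71 in KO and 5.53 ± 0.74 in WT kidneys at day 10, or by 3.89 ± 0.56 in WT kidneys without those 2 libraries.

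Basement membrane genes moved less than the interstitial groups. The median log2 change of the 10 genes was 0.698 at day 5 and 1.11 at day 10 in KO kidneys, and 0.93 and 1.2 in WT kidneys. In KO kidneys 6 rose at day 5 and 8 at day 10, and in WT kidneys 9 rose and 1 fell at each time. Nidogen 1 (Nid1), which links laminin to type IV collagen, moved most at day 5 in both genotypes. Nid1 in KO kidneys measured 65.9, 96.8, 49.05 and 64.9 CPM at day 0, 189, 189.7, 239.9 and 284 CPM at day 5 and 287, 268, 209.9 and 199 CPM at day 10. Nid1 in WT kidneys measured 32.1, 36.8, 38.3 and 43.8 CPM at day 0, 178, 228, 192 and 245 CPM at day 5 and 179, 283, 119 and 165 CPM at day 10. KO exceeded WT in every library at day 0 and the genotypes overlapped during obstruction. Nid1 rose by 1.71 ± 0.23 at day 5 and 1.80 ± 0.23 at day 10 in KO kidneys, and by 2.48 ± 0.24 and 2.30 ± 0.24 in WT kidneys. Its paralog Nid2 ranged from 33.3 to 38.5 CPM at day 0 and 42.7 to 57.2 CPM at day 10 in KO kidneys, and from 24.99 to 33.1 and 33.7 to 93.5 CPM in WT kidneys. Nid2 rose by 0.84 ± 0.23 at day 10 in WT kidneys, or by 0.45 without WT day 10 replicate 2, with a KO change of 0.46 ± 0.22 (adjusted p = 0.0853).

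Lama1, a laminin alpha chain typical of developing epithelial basement membranes, also fell in WT kidneys. Lama1 in KO kidneys measured 27.7, 18.4, 24.1 and 18.9 CPM at day 0, 22.04, 15.2, 17.5 and 25.1 CPM at day 5 and 18.4, 20.1, 17.5 and 19.9 CPM at day 10. Lama1 in WT kidneys measured 38.6, 32.5, 29.4 and 32.2 CPM at day 0, 20.1, 15.4, 17.1 and 23.9 CPM at day 5 and 22.9, 8.63, 13.5 and 15.9 CPM at day 10. In WT every obstructed library lay below every day 0 library. In KO kidneys the days overlapped, and the KO day 0 libraries all lay below the WT day 0 libraries. In WT kidneys Lama1 fell by 0.79 ± 0.22 at day 5 and by 1.12 ± 0.22 at day 10 (adjusted p = 0.00463 and 0.000154). Its KO differences from day 0 were -0.16 ± 0.22 and -0.23 ± 0.22 (adjusted p = 0.592 and 0.386). On the log2(FPKM + 1) scale the WT day 5 difference was -0.11 and did not pass (adjusted p = 0.472), and the KO changes of Lama1 and Fmod were above 0.

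Lama5, an alpha chain of mature tubular and glomerular basement membranes, in KO kidneys measured 188, 131, 162 and 152 CPM at day 0, 289, 145, 163 and 236 CPM at day 5 and 279, 455, 356 and 331 CPM at day 10. Lama5 in WT kidneys measured 162, 175, 169 and 155 CPM at day 0, 382, 286, 385 and 176 CPM at day 5 and 525, 260.2, 301 and 274 CPM at day 10. KO day 5 and KO day 0 overlapped, while KO day 10 was higher than day 0 in every library. Lama5 rose by 1.17 ± 0.26 at day 10 in KO kidneys, with a day 5 change of 0.40 ± 0.26 (adjusted p = 0.226), and by 0.89 ± 0.26 and 1.04 ± 0.26 in WT kidneys. Lamb2, the beta chain that partners it in the glomerulus, in KO kidneys measured 86.3, 75.2, 80.1 and 100.2 CPM at day 0, 98.8, 70.2, 82.1 and 101 CPM at day 5 and 119, 127, 117 and 107 CPM at day 10. Lamb2 in WT kidneys measured 63.8, 73.03, 71.8 and 74.8 CPM at day 0, 101, 112, 106 and 93.1 CPM at day 5 and 132, 115, 101 and 110.1 CPM at day 10. KO day 5 overlapped KO day 0 here too, and every KO day 10 library was above both. Lamb2 rose by 0.46 ± 0.12 at day 10 in KO kidneys, with a day 5 change of 0.04 ± 0.12 (adjusted p = 0.8), and by 0.54 ± 0.12 and 0.69 ± 0.12 in WT kidneys.

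Agrin (Agrn), a heparan sulfate proteoglycan abundant in the glomerular basement membrane, in KO kidneys measured 261, 213, 241 and 198 CPM at day 0, 543, 279.5, 372 and 409 CPM at day 5 and 594, 853, 702 and 656 CPM at day 10. Agrn in WT kidneys measured 241, 252, 241 and 238 CPM at day 0, 611, 427, 612 and 359 CPM at day 5 and 904, 485, 582 and 542 CPM at day 10. Every KO day 10 library was above every KO day 5 library, and these above day 0. Agrn rose by 0.81 ± 0.22 at day 5 and 1.62 ± 0.22 at day 10 in KO kidneys, and by 1.05 ± 0.22 and 1.37 ± 0.22 in WT kidneys. Perlecan (Hspg2), the other large heparan sulfate proteoglycan, in KO kidneys measured 115, 93.7, 104 and 125 CPM at day 0, 158, 98.8, 165 and 246 CPM at day 5 and 243, 252, 235 and 172 CPM at day 10. Hspg2 in WT kidneys measured 57.6, 82.3, 89.8 and 91.9 CPM at day 0, 147, 172, 152 and 158 CPM at day 5 and 206, 244, 184 and 159 CPM at day 10. KO lay above WT at day 0, and KO day 5 replicate 2 fell within the KO day 0 range. Hspg2 rose by 0.61 ± 0.21 at day 5 in KO kidneys, where the call was lost without KO day 5 replicate 4 (0.37, adjusted p = 0.128) or KO day 0 replicate 2 or 3. Hspg2 rose by 1.04 ± 0.21 in KO and 1.30 ± 0.21 in WT kidneys at day 10. The remaining laminin chains all rose at both times in both genotypes. At day 10 these rises were 1.27 ± 0.28 in KO and 1.38 ± 0.28 in WT kidneys for Lama2, an alpha chain of muscle and mesenchyme. They were 1.33 ± 0.35 in KO and 2.54 ± 0.37 in WT kidneys for Lama4, an alpha chain of vessels, and 0.99 ± 0.21 in KO and 1.09 ± 0.21 in WT kidneys for Lamc1, the gamma chain most laminins share. The Lama4 rise ran from 1.22 to 1.84 in KO and from 1.67 to 2.81 in WT kidneys over the 33 other settings.

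**Figure D2:**
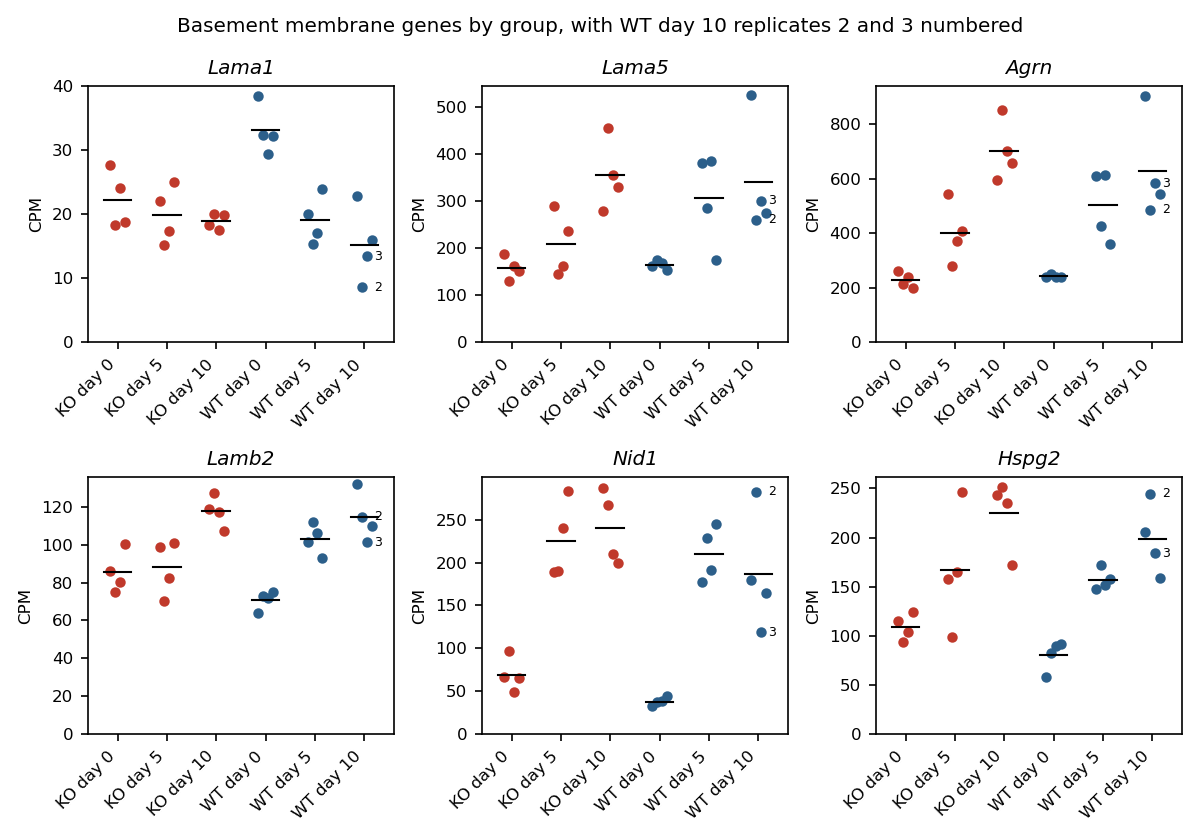
CPM of 6 basement membrane genes in each library by group, with bars at the group mean (n = 4) and WT day 10 replicates 2 and 3 numbered. Lama1 is lower in every obstructed than in every day 0 WT library, Agrn and Lamb2 are higher in every KO day 10 than in every KO day 5 library, and all KO libraries lie above all WT libraries at day 0 for Nid1 and Hspg2.

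Before obstruction, 7 of the 38 matrix genes were higher in KO than in WT kidneys and none was lower, where 3.65% of all genes were higher and 0.531% lower. They were the elastic fibre genes Fbln5 and Emilin1, the lysyl oxidases Loxl1 and Loxl4, the proteoglycans Bgn and Ogn, and the basement membrane gene Nid1. The differences were 1.36 ± 0.34 for Loxl4 (adjusted p = 0.0226), 1.22 ± 0.34 for Ogn (adjusted p = 0.0457), 1.13 ± 0.24 for Loxl1 (adjusted p = 0.00678) and 1.06 ± 0.27 for Fbln5 (adjusted p = 0.0229). They were 1.00 ± 0.20 for Bgn (adjusted p = 0.00408), 0.87 ± 0.23 for Nid1 (adjusted p = 0.0315) and 0.84 ± 0.23 for Emilin1 (adjusted p = 0.0382). For each of the 7 the lowest KO library exceeded the highest WT library. The median difference of the 38 genes was 0.402, against 0.0124 over all genes, and 27 of 38 were above 0. All 4 KO libraries lay above all 4 WT libraries for 16 of the 38 genes and below them for 1, Lama1, where 10.5% and 9.1% of all genes did so. Among the 9 others above WT without overlap were Lama2 at 0.94 ± 0.28 (adjusted p = 0.0631), Loxl3 at 1.14 ± 0.50 (adjusted p = 0.253), Loxl2 at 0.99 ± 0.40 (adjusted p = 0.2) and Fbn1 at 0.87 ± 0.31 (adjusted p = 0.133). DESeq2 called the same 7 genes and also Lama2, at 0.93 (adjusted p = 0.0276). The 6 fibronectin and matricellular genes held none of the 7, with Fn1 at 0.07 ± 0.38 (adjusted p = 0.956).

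**Figure D3:**
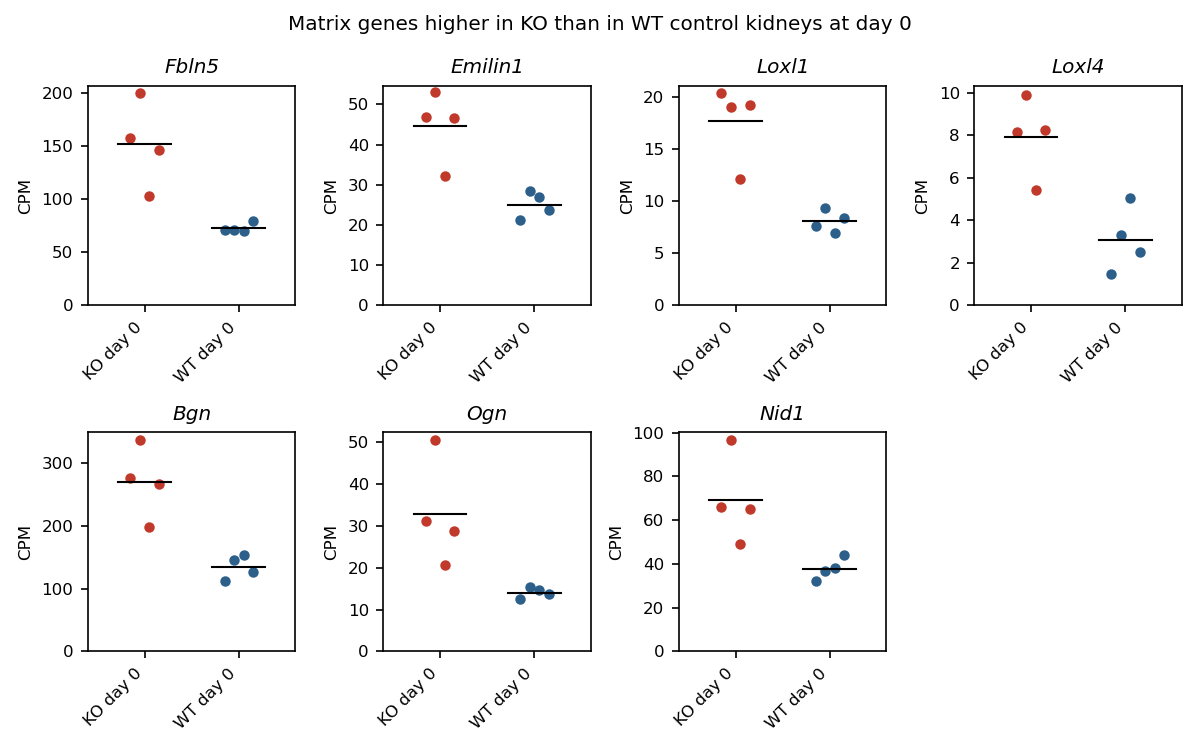
CPM of the 7 matrix genes higher in KO than in WT day 0 kidneys, 1 panel a gene, 1 point a library, with bars at the group mean (n = 4). In each panel the lowest KO point, which belongs to replicate 3 for all 7 genes, lies above the highest WT point.

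Other measures moved with the genotype at day 0. On the first principal component the KO day 0 libraries lay at -92.1 to -70.9 and the WT day 0 libraries at -122 to -102, so KO lay nearer to the obstructed libraries, which began at 3.75. Of 5 macrophage markers 3 were higher in KO kidneys, Emr1 by 2.496 ± 0.39, C1qa by 1.60 ± 0.27 and Mrc1 by 1.504 ± 0.33, and the 5 summed to 205.7 to 244.6 CPM in KO against 123.4 to 179.9 CPM in WT kidneys. Of 8 fibroblast and myofibroblast markers Pdgfra (1.22 ± 0.26) and Pdgfrb (0.85 ± 0.17) were higher, Acta2 (-0.46 ± 0.36) and Col1a1 (0.17 ± 0.42) did not pass, and the sums, 239.7 to 419.9 CPM in KO and 201.6 to 341.4 CPM in WT kidneys, overlapped. The 5 endothelial markers summed to 307.6 to 404.3 CPM in KO against 180.3 to 254.5 CPM in WT kidneys, with 0 of 5 past the threshold by edgeR and 3 of 5 at an unadjusted p under 0.05, where 15.6% of all genes were. The 6 proximal tubule markers summed to 10980 to 16090 CPM in KO and 15020 to 18170 CPM in WT kidneys, with 0 of 6 past the threshold and 0 at an unadjusted p under 0.05. The 5 podocyte markers summed to 323.1, 403.8, 375.3 and 842.7 CPM in KO kidneys, the last in replicate 4, and to 281.8 to 347.1 CPM in WT kidneys. Of the 5, 0 passed the threshold and 5 had an unadjusted p under 0.05 by edgeR. Neutrophil, urothelial and adipocyte markers summed to at most 51.3 CPM in any day 0 library. The part of these cells in the matrix difference was not tested. Bgn kept its call under all 33 other settings, Loxl1 under 32, Fbln5 under 26, Emilin1, Loxl4 and Nid1 under 25 each, and Ogn under 13. Many of the 33 leave out a library that is not compared here. Fbln5, Emilin1, Loxl4 and Nid1 each lost the call without KO day 0 replicate 1, 2 or 4. Fbln5 and Emilin1 also lost it without any WT day 0 library, Loxl4 without WT day 0 replicate 1, 2 or 4, and Nid1 without replicate 1, 2 or 3. The count of 7 fell to 2 without WT day 0 replicate 1 or 2 or KO day 0 replicate 1, 2 or 4, and to 3 or 4 without WT day 0 replicate 3 or 4. It was 11 without WT day 10 replicate 2 and 12, 11 higher and 1 lower, without WT day 10 replicates 2 and 3, which are not among the libraries compared.

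At day 5 of obstruction none of the 38 matrix genes differed between KO and WT kidneys by edgeR, where 0.146% of all genes did. At an unadjusted p under 0.05 there were 4 of 38, where 14% of all genes were, and DESeq2 also called 0. The median difference was 0.0948, against 0.015 over all genes. The largest was that of Loxl4, 0.75 ± 0.32 (adjusted p = 0.312), with 9.74, 11.4, 16.1 and 11.8 CPM in KO kidneys against 7.85, 6.79, 5.32 and 9.09 CPM in WT kidneys. It was the 1 member of 38 whose KO libraries all lay above the WT libraries, where 2.73% of all genes did so, and no member lay wholly below, as 1.86% of all genes did. Bgn was 0.47 ± 0.20 (adjusted p = 0.306) and Mfap2 -0.62 ± 0.30 (adjusted p = 0.357). Of the 7 genes higher in KO kidneys at day 0, Fbln5 was -0.03 ± 0.26, Ogn 0.01 ± 0.33 and Nid1 0.10 ± 0.23 at day 5, with adjusted p values of 0.976, 0.995 and 0.873. Without WT day 5 replicate 4 the count was 2.

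At day 10, 1 of the 38 genes, Emilin2, was lower in KO than in WT kidneys and none was higher, where 1.27% of all genes were lower and 0.139% higher. The Emilin2 difference was -3.55 ± 0.69 (adjusted p = 0.0143), with 5.64, 6.49, 7.21 and 6.49 CPM in KO kidneys against 6.97, 134, 157 and 6.03 CPM in WT kidneys, and the groups overlapped. It rested on WT replicates 2 and 3: without both it was -0.02 (adjusted p = 1), and with a term for the replicate number it was -3.21 (adjusted p = 0.0597). The call was also lost without WT day 10 replicate 2 (-3.13, adjusted p = 0.0505) and on leaving out any 1 of the 4 KO libraries of that day (adjusted p from 0.0586 to 0.0762). The count of 1 became 8 without WT replicate 1 and 13 without WT replicate 4, the libraries that lacked the high neutrophil markers. DESeq2 called 3, Emilin2 at -3.56, Loxl3 at -1.47 and Fbln5 at 0.99. It was not run without WT replicates 2 and 3, where Loxl3 had 30.6 and 9.27 FPKM. Loxl3 had 4.22 and 3.49 FPKM in WT replicates 1 and 4, and 3.84 to 5.69 FPKM in KO kidneys.

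At an unadjusted p under 0.05 there were 15 of the 38 at day 10, Emilin2 included, where 14.7% of all genes were. Fbln5 was 319.5, 225, 182 and 211 CPM in KO kidneys against 158, 82.2, 60.9 and 174 CPM in WT kidneys, with no overlap, and the difference was 0.98 ± 0.26 (adjusted p = 0.0698). Bgn was 1087, 971, 1126 and 972 CPM in KO kidneys against 757, 914, 798 and 742 CPM in WT kidneys, also without overlap, at 0.37 ± 0.19 (adjusted p = 0.385). These 2 were the members whose KO libraries all lay above WT, where 1.49% of all genes did so, and no member lay wholly below, as 1.87% did. Genes highest in WT replicate 2 with differences below 0 included Vcan at -1.73 ± 0.59 (adjusted p = 0.159), Tnc at -1.505 ± 0.65 (adjusted p = 0.286) and Dcn at -1.20 ± 0.43 (adjusted p = 0.194). Eln (0.90 ± 0.37, adjusted p = 0.257) and Fmod (1.04 ± 0.38, adjusted p = 0.198), lowest in WT replicates 2 and 3, were above 0. Without replicates 2 and 3 the median difference was 0.203, with 27 of 38 above 0, against -0.0658 and 17 of 38 with them. On the log2(FPKM + 1) scale 26 of 38 were above 0, at a median of 0.14, against 0.124 over all genes.

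**Figure D4:**
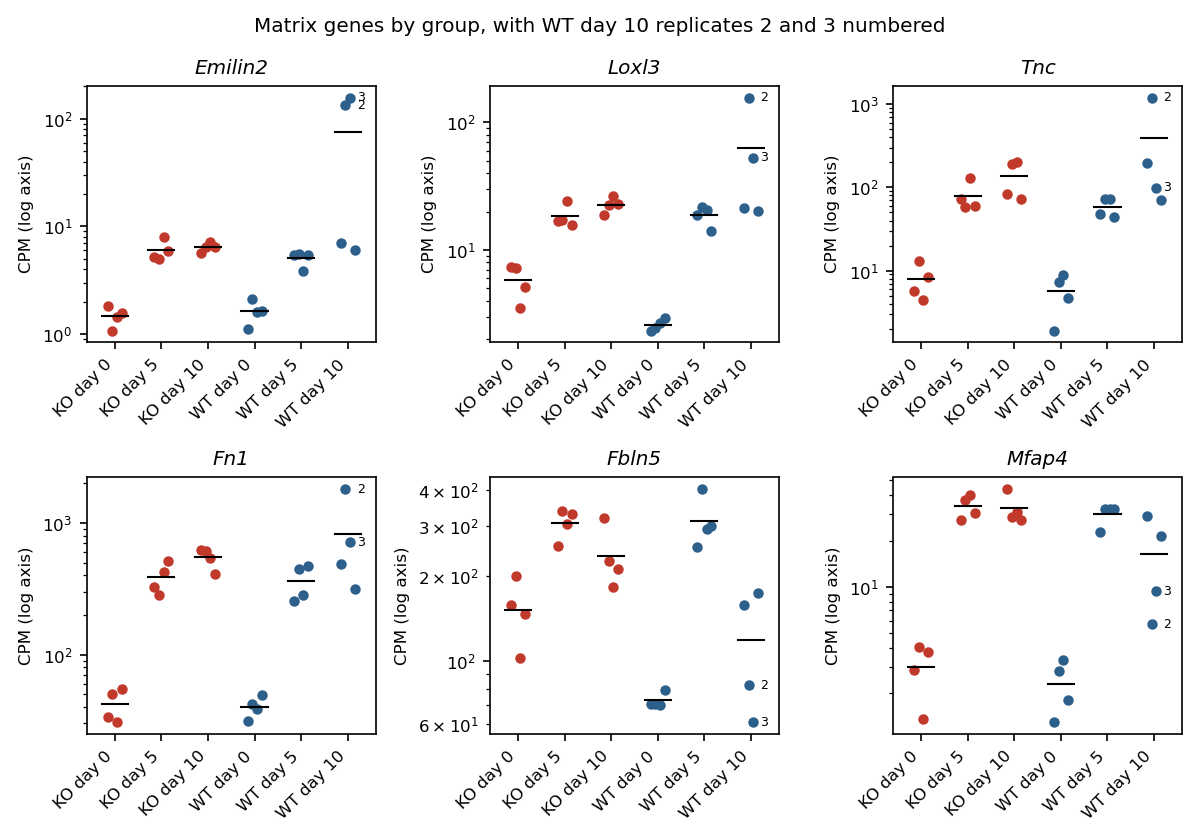
CPM on a log axis of 6 matrix genes in each library by group, with bars at the group mean (n = 4) and WT day 10 replicates 2 and 3 numbered. Emilin2 and Loxl3 are highest in those 2 libraries, Tnc and Fn1 are highest in replicate 2, and Fbln5 and Mfap4 are lower in both than in the other 2 WT day 10 libraries.

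Between day 5 and day 10 no matrix gene passed in KO kidneys, where 0.0199% of all genes did, and 4 of 38 had an unadjusted p under 0.05 by edgeR, where 10.7% of all genes had. DESeq2 called 1, Agrn at 0.83 (adjusted p = 0.0354). Agrn (0.81 ± 0.22, adjusted p = 0.253) and Lamb2 (0.42 ± 0.12, adjusted p = 0.291) were the 2 genes for which every KO day 10 library lay above every KO day 5 library, where 4.36% of all genes did so. In WT kidneys 9 of 38 genes were higher and 1 lower at day 10 than at day 5, where 7.86% and 2.93% of all genes were. The risen ones were Emilin2 (3.90 ± 0.70), Tnc (2.73 ± 0.68), Fbln2 (2.70 ± 0.56), Vcan (2.31 ± 0.60), Loxl3 (1.73 ± 0.43), Thbs1 (1.64 ± 0.42), Dcn (1.48 ± 0.44), Lama4 (1.39 ± 0.35) and Fn1 (1.19 ± 0.38), with adjusted p values from 0.00435 to 0.0458. Fbln5 fell by 1.39 ± 0.27 (adjusted p = 0.00564). Without WT day 10 replicate 2 alone the calls of Fn1 (0.46), Tnc (1.04), Thbs1 (0.53), Loxl3 (0.72), Dcn (0.47), Vcan (1.07) and Lama4 (0.68) were lost, with adjusted p values from 0.119 to 0.411, and Fbln2 was 1.26 (adjusted p = 0.0425). The Fn1 call was lost in 26 of 33 other settings. All 5 macrophage and 5 neutrophil markers and 2 of 8 fibroblast markers were also higher at day 10 than at day 5 in WT kidneys, and none in KO kidneys, and their part in these results was not tested. Without WT day 10 replicates 2 and 3 none of the 10 passed, and Fbln5 was -0.92 ± 0.24 (adjusted p = 0.339). With a term for the replicate number 9 passed, and on the log2(FPKM + 1) scale 3 were higher and 3 lower. The KO and WT comparisons of day 10 with day 5 were not tested against each other.

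The difference between the KO and the WT response was tested directly as an interaction. At day 5 no matrix gene passed, where 0.564% of all genes did, with 7 of 38 at an unadjusted p under 0.05 by edgeR (13.7% of all genes). DESeq2 and all fits with a single library left out also called 0. With the compared groups alone 3 passed, and 4 did without WT day 10 replicates 2 and 3 (Fbln5, Loxl1, Loxl3 and Ogn). The median of the 38 differences in response was -0.306, against -0.0142 over all genes. At day 10 the responses of Loxl1 and Loxl3 were smaller in KO than in WT kidneys, 2 of 38, and none was larger, where 3.12% of all genes were lower and 0.133% higher. Loxl1 rose by 1.90 ± 0.23 in KO and 3.14 ± 0.24 in WT kidneys, a difference of -1.24 ± 0.32 (adjusted p = 0.0351). Its KO and WT levels overlapped at day 10 (51.2 to 75.96 CPM in KO and 54.5 to 113 CPM in WT kidneys) and did not at day 0 (12.1 to 20.4 CPM in KO and 6.91 to 9.27 CPM in WT kidneys). Loxl3 rose by 1.97 ± 0.46 in KO and 4.58 ± 0.51 in WT kidneys, a difference of -2.61 ± 0.66 (adjusted p = 0.0298). Without WT day 10 replicate 2 alone the Loxl3 difference was -1.63 (adjusted p = 0.0327). Without WT day 10 replicates 2 and 3 the differences were -0.97 (adjusted p = 0.119) and -1.04 (adjusted p = 0.154). The count of 2 ran from 0 to 10 when single libraries were left out, with 8 without WT day 10 replicate 1 and 10 without replicate 4, and it was 0 or 1 without WT day 10 replicate 2, any WT day 0 library, KO day 0 replicate 1, 2 or 4 or KO day 10 replicate 1, 2 or 4. Of the 5 macrophage markers 4 also had a smaller response in KO kidneys, and of the 5 neutrophil markers 2, and their part in the difference was not tested. The macrophage markers summed to 1390 and 1615 CPM in WT day 10 replicates 2 and 3. They summed to 569 and 540 CPM in replicates 1 and 4, and to 555.6 to 693.2 CPM in KO kidneys at day 10. The neutrophil sums were 3591 and 6198 CPM in replicates 2 and 3, against 26.7 and 25.1 CPM in replicates 1 and 4. No marker call without replicates 2 and 3 is given. The interaction shares its day 0 libraries with the day 0 comparison, in which both lysyl oxidases were above WT in every KO library.

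**Figure D5:**
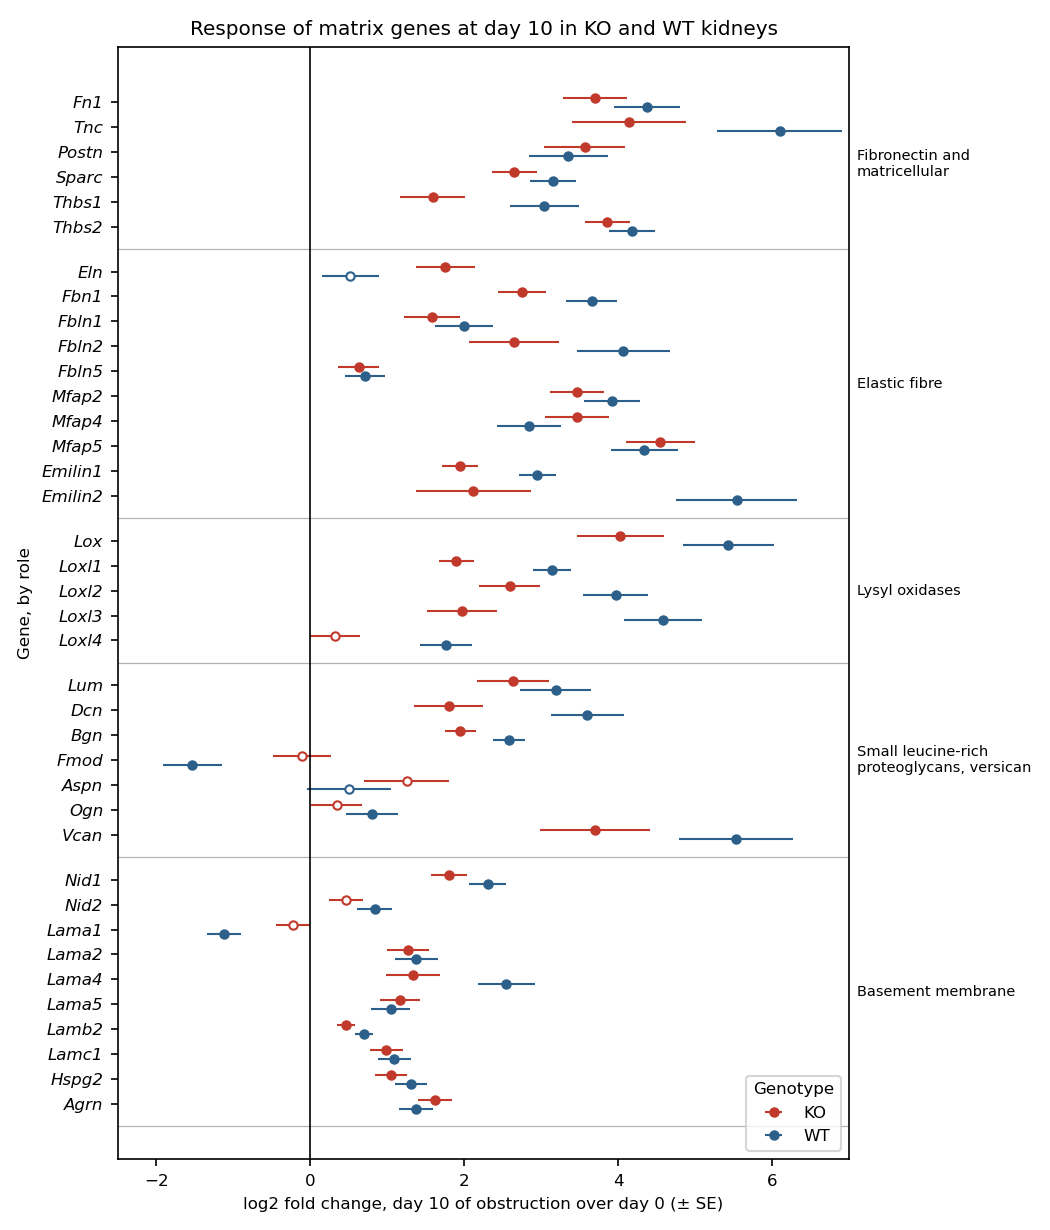
Log2 fold change ± SE of the 38 matrix genes from day 0 to day 10 of obstruction in KO (red) and WT (blue) kidneys, by role, with filled points for an adjusted p under 0.05 and open points otherwise. Most genes lie right of 0 in both genotypes, the 5 lysyl oxidases lie further right in WT than in KO, Fmod and Lama1 lie left of 0 in WT, and the widest gap is that of Emilin2.

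Many matrix genes outside the list also rose with obstruction. In KO kidneys at day 10, 30 of 44 other glycoproteins tested rose and 1 fell, with Ltbp2, a microfibril-binding member of the latent TGF-beta binding protein family, at 5.72 ± 0.46 and matrix Gla protein (Mgp), an inhibitor of calcification, at 2.98 ± 0.27. Fndc1 rose by 4.12 ± 0.35 and the fibulin Efemp2 by 2.56 ± 0.24. In WT kidneys 28 of the 44 rose and 4 fell. Of all genes 28.3% rose and 26% fell in KO kidneys, and 37.8% rose and 30.3% fell in WT kidneys. Of 19 other proteoglycans 6 rose and 4 fell in KO kidneys, which is near those shares, and 10 rose and 5 fell in WT kidneys. The glypican Gpc3 rose by 3.16 ± 0.26 in KO and 3.17 ± 0.27 in WT kidneys, Gpc6 by 2.26 ± 0.23 and 2.30 ± 0.23, and the syndecans Sdc3 and Sdc1 by 1.58 ± 0.25 and 1.98 ± 0.41 in KO kidneys. Of 19 other basement membrane genes 10 rose and 3 fell in KO and 10 rose and 5 fell in WT kidneys. Col15a1 rose by 2.56 ± 0.22, the laminin chain Lamb3 by 2.73 ± 0.33, and Col4a2 by 1.62 ± 0.20 in KO kidneys. Of 40 matrix receptors and modifying enzymes 22 rose and 3 fell in KO and 24 rose and 2 fell in WT kidneys. The hyaluronan receptor Cd44 rose by 4.12 ± 0.39 in KO and 6.88 ± 0.44 in WT kidneys, the laminin receptor chains Itgb4 and Itga3 by 1.998 ± 0.20 and 1.14 ± 0.14 in KO kidneys, and the chondroitin polymerising factor Chpf by 1.42 ± 0.10 in KO kidneys. The day 10 response in KO kidneys was smaller than in WT kidneys for Cd44 (-2.77 ± 0.52, adjusted p = 0.00866) and larger for Chpf (0.73 ± 0.14, adjusted p = 0.00992). Both differences include WT day 10 replicates 2 and 3, and no value without them is given. At day 0, 1 of the 44 glycoproteins and 3 of the 19 proteoglycans were higher in KO than in WT kidneys and none lower. Of the 19 basement membrane genes 2 were higher and 1 lower, and of the 40 receptors and enzymes 2 were higher and 1 lower. Of all genes 3.65% were higher and 0.531% lower. Among the genes named, Mgp (1.40 ± 0.25), Sdc3 (0.95 ± 0.25), Col15a1 (0.90 ± 0.21) and Cd44 (1.51 ± 0.40) were higher. Lamb3 (-1.26 ± 0.33) and Chpf (-0.63 ± 0.10) were lower.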

How the data were processed

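RNA of mouse kidney was measured in 24 libraries, in 6 groups of 4. Libraries were TruSeq stranded mRNA libraries from total RNA, per the labels' protocols. The submitters' processing notes list bcl2fastq 2.16, STAR 2.5, Cufflinks and the mm9 genome. The authors deposited raw counts per gene (23955 symbols) and FPKM per gene (23953 symbols, 23894 in both). The counting tool, its annotation and its use of strand are not given in the sources used here, so the 11 members whose exons overlap another gene in a later annotation may share reads with it.

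From the deposited counts, filterByExpr of edgeR 4.0.16 in R 4.3.3 (minimum count 10, minimum total 15) left 15080 genes. Libraries were scaled by TMM and all 24 entered 1 quasi-likelihood model with a mean for each of the 6 groups (18 residual degrees of freedom). There were 11 comparisons, each with Benjamini-Hochberg adjustment over the genes tested at 0.05. The SE is the log2 fold change divided by the square root of F. The deposited FPKM values, logged as log2(FPKM + 1) or log2(FPKM + 0.1) for genes at 1 or more in at least 4 libraries, were tested with limma 3.58.1 as an alternative. Other alternatives were RLE factors, no low-count filter, DESeq2 1.42.0, the compared groups alone, the replicate number as a block, WT day 10 without replicates 2 and 3, and each library left out. The steps were also run on simulated counts with changes in KO day 10 only and 1 spread shared by all genes. No outlying libraries were simulated, so that run does not cover the effect of WT day 10 replicates 2 and 3.

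What libraries with the same replicate number have in common is not stated in the labels. Same-numbered libraries correlated above 0.1 in all 4 pairs in their deviations from group means in 2 comparisons, the genotypes at day 10 (0.141 to 0.306) and the later against the earlier obstruction day in WT (0.105 to 0.361), and the block is given beside those results where it changes a call.

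The 38 members, their roles and the lists of other matrix genes and of cell markers were chosen with earlier results of these data known. By rule, values per library are given for Fn1, Fbn1, Eln, Tnc, Postn, Sparc, Thbs1, Lum, Dcn, Bgn, Vcan, Lox, Loxl2, Fbln2, Mfap5, Nid1, Lama1, Lama5, Lamb2, Hspg2, Agrn, Fmod, for members called between genotypes or in a difference of responses, and for Pld4. Other matrix genes named are up to 4 a list with the lowest adjusted p in KO kidneys at day 10, of which 1 is not reported here, and the cell markers named at day 0 were chosen after their values were seen. Promoters were taken from RefSeq's table. Precision is limited by 4 libraries a group.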

Additional observations from a re-analysis of the deposited data

Results flagged for a closer look

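Within 4 libraries of a group, 22 values of the 38 genes stood so far from the other 3 that the gap exceeded Dixon's 95% limit. There were 234 groups of values examined, those of Pld4 included. The limit lets about 1 in 20 pass by chance where values are independent and normally spread. These were unlogged CPM of genes in the same 24 libraries, so that share need not hold here. WT day 10 replicate 2 held 6 of the 22, each the highest of its group: Tnc at 1198 CPM, Thbs1 at 1598, Fbln2 at 336, Loxl1 at 113, Loxl2 at 348 and Loxl4 at 19.2. WT day 10 replicate 1 was highest for Lama5 at 525 CPM. KO day 5 replicate 3 held 3 high values, Postn at 63.9 CPM, Mfap5 at 16.1 and Vcan at 26.5, and KO day 0 replicate 2 held 3, Lox at 11.7 CPM, Aspn at 7.64 and Vcan at 2.03. Single high values were Thbs1 at 149.5 CPM in KO day 0 replicate 4, Fbln5 at 78.8 in WT day 0 replicate 4 and Lum at 27.96 in WT day 5 replicate 4. Single low values were Mfap2 at 14.0 CPM in KO day 10 replicate 4, Ogn at 35.3 in KO day 5 replicate 1 and Loxl1 at 12.1 in KO day 0 replicate 3. Also low were Mfap4 at 22.9 CPM in WT day 5 replicate 1, Emilin2 at 3.87 in WT day 5 replicate 3 and Lamc1 at 51.1 in WT day 0 replicate 1.

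Among the genes named, responses to obstruction that differed between KO and WT kidneys by the interaction test were those of Loxl1 at -1.24 and Loxl3 at -2.61 on the log2 scale at day 10, and of Pld4 at -1.75 at day 5 and -1.63 at day 10. Also different at day 10 were the responses of the hyaluronan receptor Cd44 at -2.77 and of Chpf at 0.73, and of the macrophage markers Emr1 at -2.84, C1qa at -2.18 and Mrc1 at -2.36. For Pld4, Cd44, Chpf and these markers, no day 10 value without WT day 10 replicates 2 and 3 is given.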

How the results depend on the processing

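For the 4 comparisons of obstruction with day 0, counts of members called stayed within 1.5 times the reported ones under all settings run, with leave-one-out ranges of 26 to 32 (day 5) and 31 to 34 (day 10) in KO and 33 to 38 and 34 to 37 in WT kidneys. FPKM scales moved the median of all genes by up to 0.657 in these comparisons and up to 0.155 between genotypes. Over the 154 called differences of single genes and 33 other settings, 4837 values kept their direction and side of the threshold, 244 missed it, and 1 reversed, Dcn from day 5 to day 10 in WT, at -0.073 without WT day 10 replicates 2 and 3, an alternative that leaves 2 libraries in that group.

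KO against WT at day 0 had 7 members called, to which DESeq2 added Lama2. The count was 4 by limma on log2(FPKM + 1), 2 with no filter on it, 13 with the compared groups alone, 12 without WT day 10 replicates 2 and 3, and 2 to 11 with single libraries left out. At day 5 the count was 0, and 0 to 2 with single libraries left out. At day 10 it was 1, against 3 by DESeq2, 0 under all 3 limma settings, 0 with the compared groups alone, 0 with the replicate block, 0 without WT replicates 2 and 3, and 0 to 13 with single libraries left out. For day 10 against day 5, DESeq2 called 1 against 0 in KO kidneys, where no leave-one-out fit called any. In WT kidneys the count of 10 became 6 on log2(FPKM + 1), 5 on log2(FPKM + 0.1), 4 with no filter, 0 with the compared groups alone and 0 without replicates 2 and 3. It was 9 with the replicate block and 3 to 18 with single libraries left out: 3 without WT day 10 replicate 2, 16 without replicate 1, 18 without replicate 4, 4 without WT day 5 replicate 1 and 6 without its replicate 3. For the difference in response at day 5 the count of 0 became 3 with the compared groups alone and 4 without WT day 10 replicates 2 and 3 (Fbln5, Loxl1, Loxl3 and Ogn), with 0 in all leave-one-out fits. At day 10 the count of 2 became 4 by DESeq2, 0 under all 3 limma settings, 0 with the compared groups alone and 0 without WT replicates 2 and 3, and was 0 to 10 with single libraries left out. Ogn lost its day 0 call with the replicate block (1.19, adjusted p = 0.0589), where the numbers did not pair the libraries. The causes were not tested. With 4 libraries a group, counts near 0 at day 0 (Mfap5, Vcan, Emilin2) limit those fold changes.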
